A study of Homo sapiens with 6 samples.

Results

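The actin cytoskeleton genes described here are 55 genes chosen by symbol: the cytoplasmic actins, the chains of nonmuscle myosin, the tropomyosins, calponins and transgelins, the Arp2/3 complex, the proteins that bind, sever and cap actin, the crosslinkers, the linkers to membranes and adhesions, and the transcription factor SRF with its coactivator MRTFA. All 55 were found among the 62443 genes of the deposited table. The libraries were made from total RNA of HGC-27, a human gastric cancer cell line, and comprised 3 controls (Con) and 3 libraries from cells given GLUP peptide. Con cells are labelled as having no treatment, while the methods name the storage buffer of the peptide as the control. GLUP is a cyclic peptide that carries repeated core residues of the TEAD4-binding motif of VGLL4 and was made to hold TEAD4 molecules together. All libraries come from 1 line. For RNA sequencing, the paper states a concentration, exposure times that differ between its sections, and biological replicates. The labels give no concentration, time or culture that would tie these to the libraries. The p-values therefore measure the spread between these samples, which by the labels may be technical.

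Actin monomers assemble into filaments that cofilin severs, capping protein terminates, the Arp2/3 complex branches and nonmuscle myosin pulls on. Monomeric actin also binds MRTFA and keeps it away from SRF, so that the state of the cytoskeleton feeds back on transcription of its own genes. Filament tension promotes the nuclear activity of YAP, a partner of the TEAD factors, which is why these genes bear on a peptide aimed at TEAD4.

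The values were FPKM, fragments per kilobase of gene scaled to the mapped fragments, and their sums ran from 909735 to 965147 per library. FPKM is scaled to gene length, but it is relative to each library's total. Levels still fell with transcript length, as given below, so comparisons of level between genes are rough. The number of reads is unknown. A spacing of the lowest values, met by 4.03% to 5.45% of them, gave a rough relative depth of 0.832 for Con replicate 2, the shallowest, when GLUP replicate 2 is set to 1. Con replicate 2 stood apart, with a mean correlation across genes with the other libraries of 0.898 against 0.954 to 0.964 for the others. Con replicate 3 lay nearer to the GLUP mean than to the mean of the other Con libraries for 34 of the 45 actin cytoskeleton genes tested. That reference mean includes Con replicate 2. The same count was not made over all tested genes, so it is not read as a trait of the list.

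The identity of the cells was read from marker lists. Vimentin carried the mesenchymal list, whose summed level was 344 to 409.7 FPKM in Con and 229 to 339.5 FPKM in GLUP. Of the other genes on that list, CDH2 was at 0.0508 FPKM or below in every library. FN1 was at 3.25 FPKM or below, and ZEB1 at 19.2 FPKM or below. The 5 epithelial markers summed to 2.97 to 3.70 FPKM in Con and 5.18 to 6.06 FPKM in GLUP, with EPCAM and CDH1 at 0.124 FPKM or below in every library. TFF1, MUC6 and GKN1, genes of differentiated gastric mucosa, were listed at 0 in all libraries. Leukocyte markers stayed at or below a sum of 0.0394 FPKM, and the 2 endothelial markers found at or below 0.00450 FPKM. The fibroblast list summed to 25.4 to 45.1 FPKM in Con and 19.1 to 27.2 FPKM in GLUP, of which DCN held the most. Among smooth muscle markers, ACTA2 was at 29.0 FPKM or more in every library, whereas MYH11, DES and CNN1 were all at or below 0.124 FPKM. The part of these cell types in the results below was not tested.

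First, the levels of the 55 genes were compared with each other. They spanned more than 4 orders of magnitude. MYL6, the essential light chain of nonmuscle myosin, stood at 8637, 9730.0 and 8764 FPKM in the 3 Con libraries, given here and below in the order of their replicate numbers, and at 7328, 9137 and 11158 FPKM in GLUP. It ranked between 12 and 23 among all genes of a library, although MYL6B, which overlaps it on the same strand, was itself at a mean of 80.6 FPKM. TMSB10, a thymosin that holds actin monomers, was at 5694, 6753 and 7463 FPKM in Con and at 7987, 8469 and 10116 FPKM in GLUP, so that its groups did not overlap. These 2 genes made up 75.2% to 83.9% of the summed FPKM of the list, which was 2.07% to 2.63% of a library. Without them the list held 0.424% to 0.539%.

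The lower end of the order was held by long transcripts. The 12 genes whose mean reached 100 FPKM had transcripts of 461 to 2358 bases, and the 10 genes with a mean below 1 FPKM had transcripts of 2242 to 9159 bases. Across the 55 genes, the Spearman correlation of mean FPKM with transcript length was -0.645, compared with -0.310 over the tested genes of the whole table; genes share the libraries and are not independent. MYH9, the heavy chain that pairs with the light chains, was at 1.68, 0.802 and 1.12 FPKM in Con and at 1.55, 1.07 and 0.827 FPKM in GLUP. MYL6 therefore stood more than 3 orders of magnitude above MYH9 in every library on the scale per length. FLNC, TLN1 and ACTN4, large proteins that crosslink filaments or tie them to integrins, did not exceed 0.514 FPKM in any library.

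**Figure D1:**
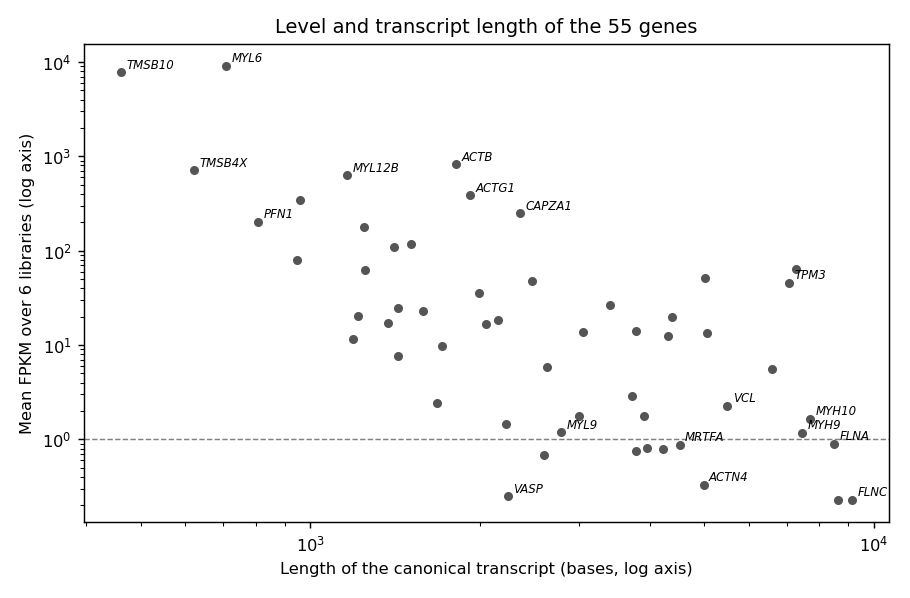
Mean FPKM over the 6 libraries (vertical, log axis) against the length of the canonical transcript in bases (horizontal, log axis) for the 55 genes, each a point, with the minimum of 1 FPKM as a dashed line. TMSB10 and MYL6, with transcripts of 461 and 708 bases, sit at the top, TMSB4X, at 622 bases, lies lower at a mean of 712 FPKM, and the 10 genes below the line all have transcripts of 2242 bases or more.

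Next, GLUP and Con were compared gene by gene with limma on log2(FPKM + 1), a scale that understates the change of low genes. Of the 55 genes, 45 reached a mean of 1 FPKM and were tested together with the rest of 7406 genes. No actin cytoskeleton gene had an adjusted p under 0.05, and the background was 0% of the 7406 genes. Adjusted p-values of the 45 ranged from 0.194 to 0.986. At an unadjusted p under 0.05, 4 of the 45 genes (8.89%) were higher in GLUP, against 4.46% of all tested genes, and 7 (15.6%) were lower, against 17.2%. Scaling with the trimmed mean of log ratios gave 6 higher (13.3%, against 10.2% of all tested genes) and 4 lower (8.89%, against 8.83%), so that the balance over all genes turned and the shares of the list lay closer to it. The 3 GLUP values lay wholly above the 3 Con values for 5 genes (11.1%, background 7.55%) and wholly below them for 12 (26.7%, background 22.7%). In these bulk samples, fewer cells of a type and less RNA per cell cannot be told apart.

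The median log2 fold change of the 45 genes was -0.11, compared with -0.23 for all tested genes. By sign, 28 of the 45 (62.2%) had a lower mean in GLUP, against 65.5% of all tested genes. This balance turned with the scaling: with the trimmed mean of log ratios, 19 were lower and 26 higher, and the median was 0.07, beside -0.01 for all genes. For the main genes, the distance of the fold change from the all-gene median of -0.23, without any other scaling, is given too. Under 5 other scalings, 14 of the 45 genes stayed higher in GLUP and 15 stayed lower, while 16 changed sign in at least 1 of them. None of these 16 had a log2 fold change beyond 0.45 in size. With the trimmed mean, the groups of MYL12B, TPM1, TPM4, ARPC2 and ACTR2 came to overlap, and 7 genes stayed wholly lower (15.6%), beside 14.4% of all tested genes at that scaling.

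Adjusted calls among the 45 genes appeared only when a single control library was left out. Without Con replicate 3, 7 of the 45 genes passed an adjusted p of 0.05 in limma. ARPC1B, TAGLN2 and CFL1 were the 3 that were higher, where 2.2% of all tested genes passed in that direction. PFN2, ACTR2, CFL2 and CAPZA2 were the 4 that were lower, where 16.3% of all tested genes passed. Without any other library none of the 45 passed. The 10 genes below the minimum had log2 fold changes between -0.35 and 0.34 in the fit without a filter, with unadjusted p-values of 0.109 or more. ACTN4 alone among them had groups that did not overlap.

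**Figure D2:**
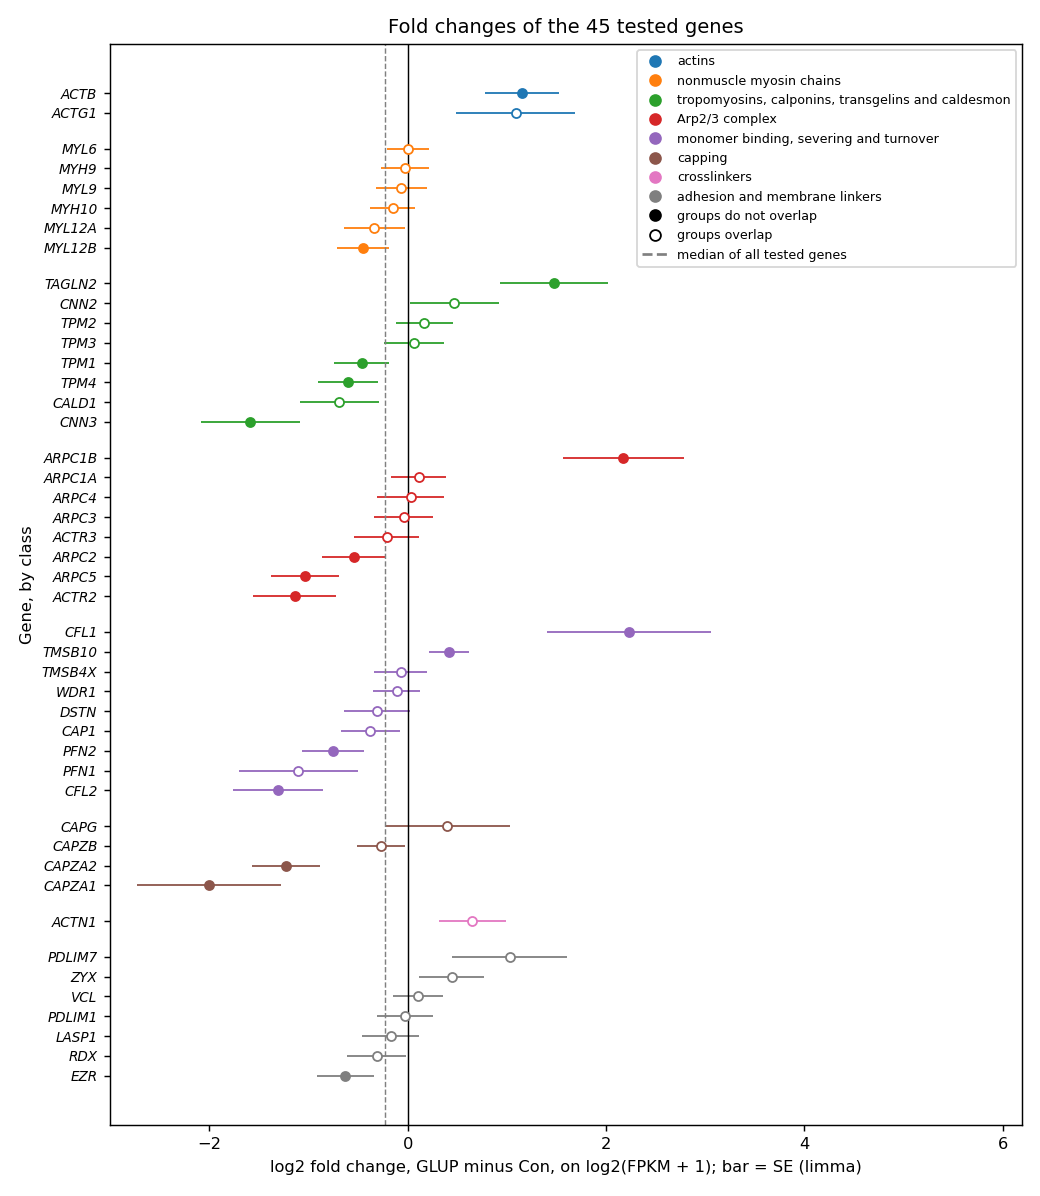
Log2 fold change of GLUP against Con on the log2(FPKM + 1) scale (horizontal) for the 45 tested genes, grouped by class, with limma standard errors as bars. Filled points mark genes whose groups do not overlap, 5 higher and 12 lower, and the dashed line is the median of all tested genes, -0.23.

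The actins had the higher mean in GLUP. ACTB (ENSG00000075624, chromosome 7, 5566040 to 5603533, minus strand, GRCh37), the beta actin of the cell cortex, was at 524, 323 and 669.8 FPKM in Con and at 1686, 929 and 795 FPKM in GLUP. All GLUP values lay above all Con values. In log2 units GLUP exceeded Con by 1.15 (SE 0.37), which is 1.38 relative to the median (adjusted p 0.194 in limma). ACTG1 (ENSG00000184009, chromosome 17, 79476439 to 79490873, minus strand), the gamma actin, was at 346, 70.4 and 449 FPKM in Con and at 622, 435 and 395 FPKM in GLUP. Con replicate 3 lay within the GLUP range, and Con replicate 2 was far below every other library. Its log2 fold change was 1.09 (SE 0.60, adjusted p 0.286 in limma), and only 0.27 when Con replicate 2 was left out. The pair has many processed copies in the genome, and 12 of them are named for ACTB and 21 for ACTG1. Summed, these copies held 0.0902% and 0.957% of the mean level of their genes, but reads that fit several copies equally could be placed on any of them.

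The nonmuscle myosin chains differed little between the groups. MYL12B, a regulatory light chain, was at 675, 860.1 and 639.8 FPKM in Con and at 467, 526 and 595 FPKM in GLUP, and its groups did not overlap. The log2 fold change of -0.45 (SE 0.26, adjusted p 0.308 in limma) turned to 0.04 once the trend with GC content and length was taken out (called GC correction below). MYL12A, its neighbour on chromosome 18 and close relative, was at 312, 547 and 310.0 FPKM in Con and at 279, 297 and 317 FPKM in GLUP. Only Con replicate 2 stood clear of the rest, and the log2 fold change was -0.34 with it, -0.06 when it was left out and 0.07 after GC correction. The other 4 chains, MYL6, MYL9, MYH9 and MYH10, had log2 fold changes from -0.15 to 0.01, and each changed sign in at least 1 of the other scalings.

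Among the proteins that lie along filaments, members of the same family lay on different sides. TAGLN2 (ENSG00000158710, chromosome 1, 159887897 to 159895297, minus strand), the transgelin of non-muscle cells, was at 11.3, 2.27 and 16.0 FPKM in Con and at 30.6, 20.5 and 20.9 FPKM in GLUP. The groups did not overlap, and GLUP lay 1.48 log2 units higher (SE 0.55, adjusted p 0.198 in limma), 1.71 relative to the median and 0.76 if Con replicate 2 is omitted. TAGLN, the smooth muscle transgelin and a classical SRF target, was below the minimum. It was at 0.948, 0.208 and 0.949 FPKM in Con and at 0.918, 0.682 and 0.793 FPKM in GLUP, so that its GLUP values lay within the Con range. The log2 fold change, 0.11 (SE 0.22), was -0.12 when Con replicate 2 was left out. CNN3, the acidic calponin, was at 114, 28.0 and 29.8 FPKM in Con and at 13.0, 16.0 and 14.9 FPKM in GLUP. The 3 GLUP values were close together and below all Con values, and Con replicate 1 was several times above the other controls. Its log2 fold change was -1.58 (SE 0.50, adjusted p 0.194 in limma), or -1.35 relative to the median, and -0.94 without Con replicate 1. Of the tropomyosins, which coat filaments and govern access of myosin, TPM1 and TPM4 had lower means in GLUP with no overlap, at log2 fold changes of -0.46 and -0.60. TPM4 was at -0.40 when Con replicate 1 was left out and at -0.32 with overlap after GC correction. TPM2 and TPM3 had log2 fold changes of 0.17 and 0.07, and changed sign to -0.08 after GC correction and to -0.11 when Con replicate 2 was left out, respectively. CNN2 was at 0.47, and at 0.02 without Con replicate 2. The myosin-blocking CALD1 was at -0.69, and at -0.31 without Con replicate 2.

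**Figure D3:**
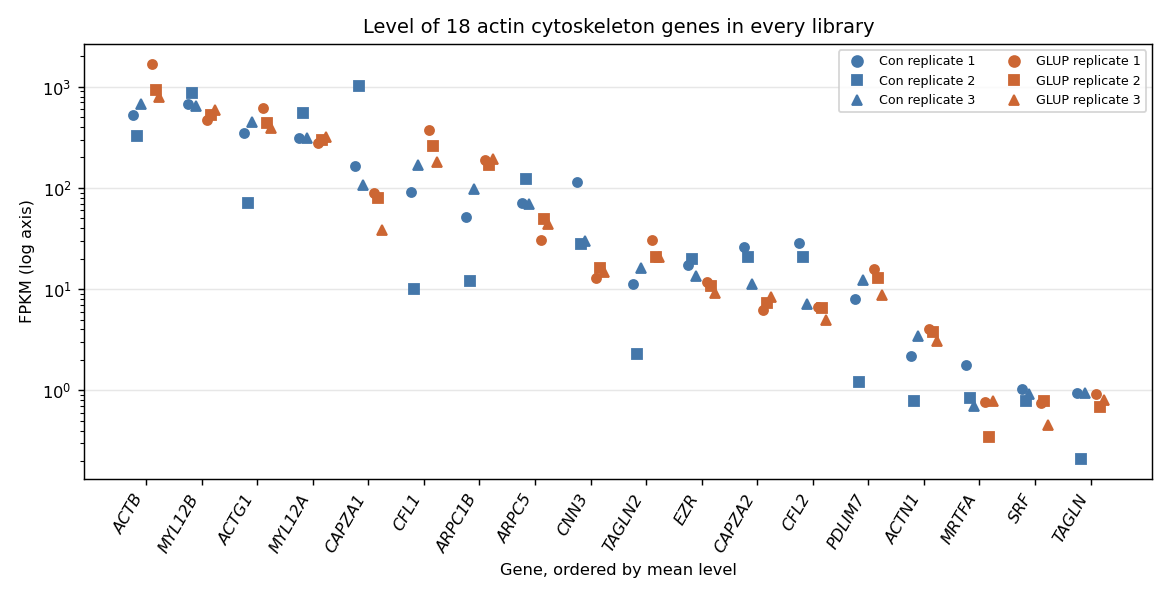
FPKM (vertical, log axis) in each of the 6 libraries for 18 genes (both actins, TAGLN, SRF, MRTFA and up to 2 tested genes with the smallest p in each class), ordered by mean level, with Con in blue, GLUP in orange and the replicate number as the shape. Con replicate 2 is the lowest library for CFL1, ARPC1B, TAGLN2 and ACTG1 and the highest for CAPZA1 and ARPC5, while Con replicate 3 often sits next to the GLUP points.

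Subunits of the Arp2/3 complex, which work as 1 assembly with fixed proportions, differed in the sign of their mean difference. ARPC1B (ENSG00000130429, chromosome 7, 98971872 to 98992439, plus strand), the propeller subunit, was at 52.0, 12.1 and 96.8 FPKM in Con and at 189, 168 and 195 FPKM in GLUP. The GLUP libraries were tight and all Con libraries lay below them. GLUP lay 2.18 log2 units higher (SE 0.61, adjusted p 0.194 in limma), 2.41 relative to the median, and 1.36 if Con replicate 2 is omitted. ARPC1A, the other form of that subunit, was nearly level, at a log2 fold change of 0.11. ARPC5 (ENSG00000162704, chromosome 1, 183589981 to 183604918, minus strand), the smallest subunit, was at 70.6, 122 and 68.7 FPKM in Con and at 30.8, 49.4 and 43.9 FPKM in GLUP, with no overlap. The groups differed by -1.03 log2 units (SE 0.35, adjusted p 0.195 in limma), or -0.80 relative to the median. ACTR2, which with ACTR3 mimics an actin pair at the branch, was at -1.14 with no overlap, and at -0.69 without Con replicate 2 or -0.55 with overlap after GC correction. ARPC2 was at -0.54 with no overlap, but at -0.28 when Con replicate 1 was left out, and at -0.25 with overlap after GC correction. ARPC3, ARPC4 and ACTR3 lay between -0.21 and 0.03 and changed sign with the scaling.

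Genes of filament turnover held the widest split. CFL1 (ENSG00000172757, chromosome 11, 65590493 to 65629497, minus strand), the main cofilin of non-muscle cells, was at 91.6, 9.93 and 167 FPKM in Con and at 369, 259 and 181 FPKM in GLUP. The highest control lay just below the lowest GLUP library. The difference of 2.23 log2 units (SE 0.83, adjusted p 0.198 in limma), 2.46 relative to the median, ran from 1.06 with Con replicate 2 left out to 3.03 with Con replicate 3 left out. CFL2, the muscle cofilin, was at 28.8, 20.7 and 7.14 FPKM in Con and at 6.71, 6.56 and 4.97 FPKM in GLUP. Con replicate 3 again lay next to GLUP, and the log2 fold change was -1.31 (SE 0.45, adjusted p 0.198 in limma), or -1.08 relative to the median. After GC correction it was -0.66, and the groups overlapped.

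The profilins, which feed monomers to growing ends, both had lower means in GLUP. PFN1 was at 638, 83.9 and 189 FPKM in Con and at 95.1, 97.3 and 109.6 FPKM in GLUP. Con replicate 2 lay below all GLUP libraries, and the log2 fold change of -1.10 (SE 0.60, adjusted p 0.285 in limma) ran from -0.32 without Con replicate 1 to -1.78 without Con replicate 2. The 11 named processed copies of PFN1 summed to 40.2, 7.76 and 12.4 FPKM in Con and to 4.83, 9.57 and 9.27 FPKM in GLUP, and were thus also highest in Con replicate 1. PFN2 was at 22.6, 26.9 and 14.2 FPKM in Con and at 12.3, 12.6 and 10.7 FPKM in GLUP, a log2 fold change of -0.75 (SE 0.32) with no overlap, which was -0.26 after GC correction. TMSB10 had a log2 fold change of 0.42 (SE 0.21), and TMSB4X, the other monomer-binding thymosin, of -0.07, which turned positive in 4 of the 5 other scalings. DSTN, a relative of cofilin, and WDR1 and CAP1, which help cofilin to recycle actin, ranged from -0.37 to -0.11. DSTN turned to 0.20 after GC correction, and WDR1 changed sign in 4 of the 5 other scalings. GSN, which severs and caps in a calcium-dependent way, was below 1 FPKM in every library.

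Both alpha subunits of capping protein, which seals the growing ends of filaments, had lower means in GLUP. CAPZA1 (ENSG00000116489, chromosome 1, 113162427 to 113214238, plus strand) was at 163, 1020.0 and 107 FPKM in Con and at 89.3, 79.4 and 38.1 FPKM in GLUP. Con replicate 2 was several times above every other library. The log2 fold change of -1.999 (SE 0.73, adjusted p 0.198 in limma), or -1.77 relative to the median, was -1.02 without it. CAPZA2 (ENSG00000198898, chromosome 7, 116451124 to 116562103, plus strand) was at 26.0, 20.6 and 11.3 FPKM in Con and at 6.17, 7.31 and 8.41 FPKM in GLUP. Its groups did not overlap, and its log2 fold change was -1.22 (SE 0.35, adjusted p 0.194 in limma), or -0.99 relative to the median. CAPZB, the partner subunit, was at -0.27, with MICOS10 at a mean of 78.6 FPKM overlapping it on the other strand. CAPG, a gelsolin relative that caps without severing, stood 0.40 log2 units higher in GLUP, but -0.49 when Con replicate 2 was left out.

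Crosslinkers and adhesion linkers were mostly low and overlapped between the groups. ACTN1, an alpha-actinin that bundles filaments, was at 2.19, 0.782 and 3.43 FPKM in Con and at 4.03, 3.74 and 3.09 FPKM in GLUP, a log2 fold change of 0.65 (SE 0.34, adjusted p 0.269 in limma) and 0.29 without Con replicate 2. EZR, which ties filaments to the plasma membrane, was at 17.3, 19.98 and 13.6 FPKM in Con and at 11.7, 10.7 and 9.24 FPKM in GLUP. Among the 7 linkers tested, EZR was the one whose groups did not overlap, with a log2 fold change of -0.63 (SE 0.29, adjusted p 0.236 in limma). PDLIM7, a scaffold of filaments and kinases, was at 7.89, 1.21 and 12.3 FPKM in Con and at 15.8, 12.7 and 8.64 FPKM in GLUP, and its log2 fold change, 1.03, was 0.26 when Con replicate 2 was left out. Vinculin (VCL), zyxin (ZYX), LASP1, PDLIM1 and RDX had log2 fold changes from -0.31 to 0.45, with overlapping groups. The highest of them, ZYX, was at 0.14 when Con replicate 2 was left out, and the lowest, RDX, turned to 0.27 after GC correction.

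Within a library, the ratio of related genes does not depend on how that library is scaled. Therefore 19 pairs were compared by the log2 ratio of their FPKM, with an exact two-sided permutation test over the 6 libraries, for which the smallest possible p is 0.1. No pair could pass at this size. In 8 pairs the 3 GLUP ratios lay on one side of the Con ratios (p = 0.1 in the exact permutation test, 0.2375 adjusted over the 19 pairs). CFL1 was 3.18, 0.480 and 23.4 times as high as CFL2 in Con and 55.04, 39.6 and 36.5 times as high in GLUP. The mean log2 ratio was 1.72 ± 2.80 (SD, n = 3) in Con and 5.43 ± 0.31 (SD, n = 3) in GLUP, and their difference of 3.71 was 2.32 when Con replicate 2 was left out. The transcript of CFL1 has a GC content 20.7 percentage points above that of CFL2. After GC correction, the log2 fold changes of the pair were 2.07 for CFL1 and -0.66 for CFL2. Among the calponins, CNN2 stood at 0.170, 0.253 and 0.683 of the level of CNN3 in Con and at 2.34, 1.25 and 0.878 in GLUP. This is a difference in log2 ratio of 2.15, or 1.34 after GC correction.

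ARPC1A was at 0.409, 1.79 and 0.234 of the level of ARPC1B in Con and at 0.146, 0.136 and 0.108 in GLUP, so that ARPC1B was the higher form in every library other than Con replicate 2. The difference in log2 ratio, -2.11, was -1.26 when that library was left out. TAGLN against TAGLN2 had a log2 ratio lower by 1.20 in GLUP (difference -1.20), TPM1 against TPM3 of -0.55, ACTR2 against ACTR3 of -0.99 and TMSB4X against TMSB10 of -0.49. TPM2 against TPM4 was at a difference of 0.80. Leaving out Con replicate 2 gave -0.33 for TPM1 against TPM3 and -0.49 for ACTR2 against ACTR3. After GC correction, TMSB4X against TMSB10 was at -0.13, TPM2 against TPM4 at 0.24 and TPM1 against TPM3 at -0.86. By contrast ACTB was 1.51, 4.58 and 1.49 times as high as ACTG1 in Con and 2.71, 2.14 and 2.01 times in GLUP. The means of that log2 ratio were 1.12 ± 0.93 (SD, n = 3) and 1.18 ± 0.23 (SD, n = 3), and the difference of 0.06 was smaller than the spread between the libraries.

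**Figure D4:**
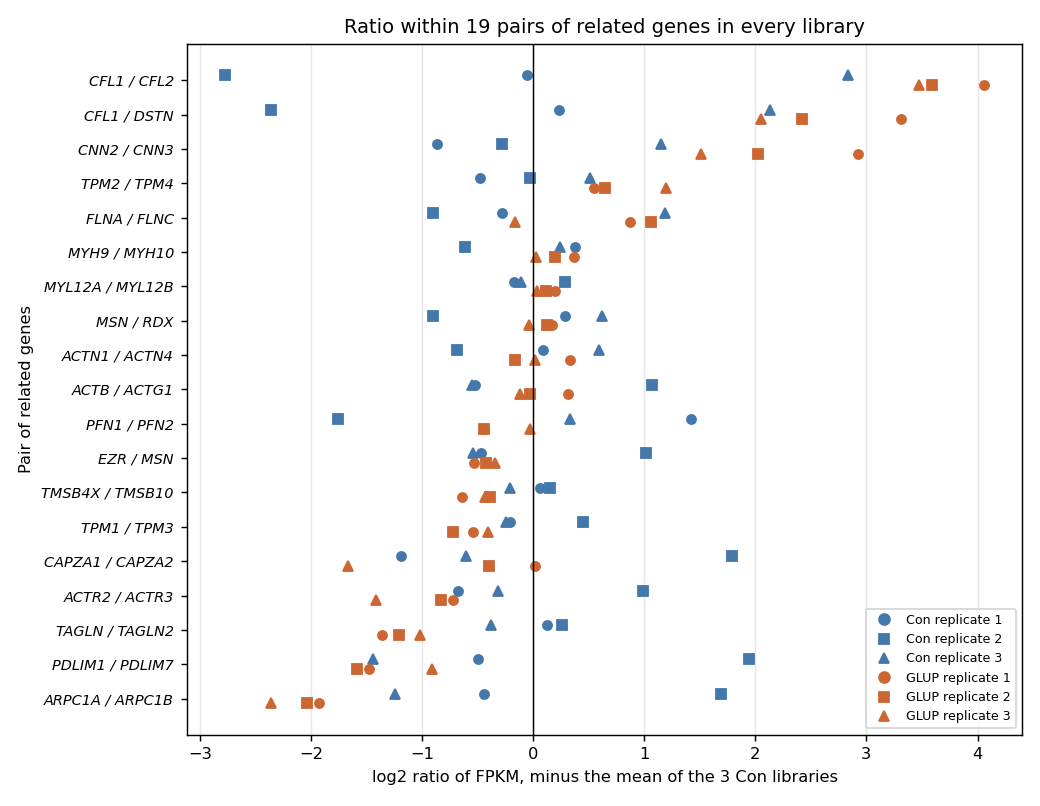
Log2 ratio of FPKM within 19 pairs of related genes in every library, relative to the mean of the 3 Con libraries (horizontal), with Con in blue, GLUP in orange and the replicate number as the shape. For CFL1 to CFL2 the GLUP points lie to the right of all Con points, and for ARPC1A to ARPC1B to the left, while ACTB to ACTG1 overlaps.

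Base composition moved with these differences. The 5 genes that were higher without overlap had transcripts of 53.4% to 57.8% GC, and the 12 that were lower had 34.8% to 50.9%. Across the 45 genes, the Spearman correlation of the log2 fold change with GC content was 0.699, compared with 0.549 over all tested genes. The deviation of a library from the mean of each of the 45 genes correlated with GC content at -0.447, -0.762 and 0.645 in Con and at 0.642, 0.627 and 0.413 in GLUP. The sign in Con replicate 3 was thus that of GLUP. Among the 19 pairs, the member with the higher GC content was relatively higher in GLUP in 14, and in 6 of the 8 pairs that did not overlap.

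The trend with GC content and length was then removed from each library, without use of the groups. The correlation across the 45 genes became 0.293, and none passed an adjusted p of 0.05 (smallest 0.187 in limma). ARPC1B was then at 1.92, CFL1 at 2.07, TAGLN2 at 1.30 and ACTB at 1.00, each still without overlap. CAPZA1 was at -1.39, CNN3 at -1.13 and CAPZA2 at -0.71, also without overlap. PFN1, whose transcript has 58.2% GC, was at -1.31 without overlap, although its groups had overlapped before the correction. ARPC5 was at -0.53 and overlapped. The part of base composition in the remaining differences was not tested.

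**Figure D5:**
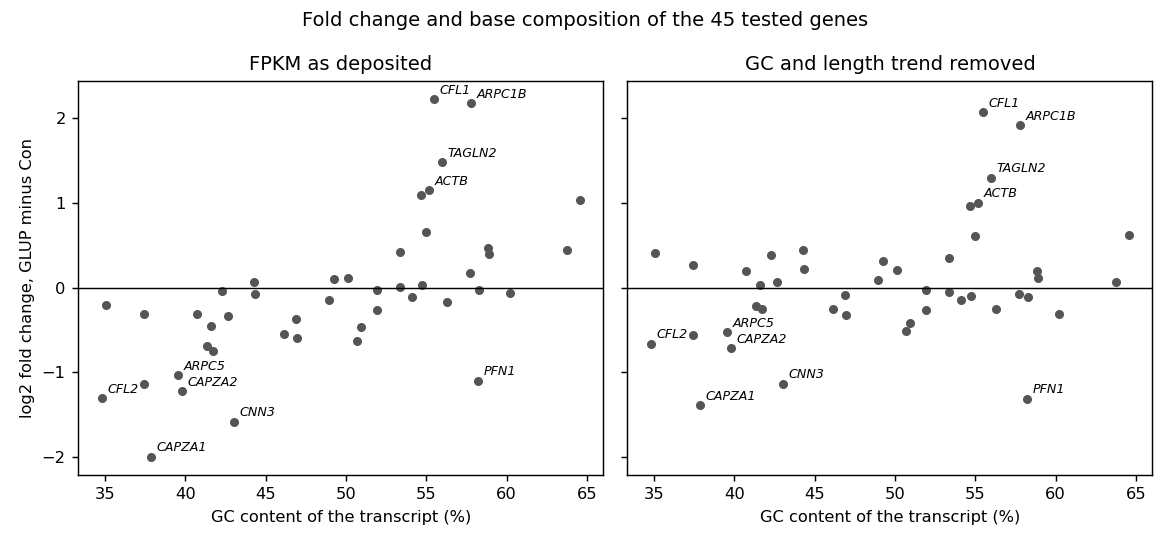
Log2 fold change of GLUP against Con (vertical) against the GC content of the transcript in percent (horizontal) for the 45 tested genes, with FPKM as deposited on the left and after GC and length correction on the right. The Spearman correlation is 0.699 on the left and 0.293 on the right, and CFL1, ARPC1B, TAGLN2 and ACTB stay on the upper side in both.

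Finally, the transcriptional arm and the wider pathway were examined. SRF was at 1.04, 0.776 and 0.928 FPKM in Con and at 0.754, 0.778 and 0.451 FPKM in GLUP. GLUP replicate 2 lay just above the lowest Con value, and the difference was -0.21 log2 units (SE 0.15) when no filter was applied. MRTFA was at 1.79, 0.848 and 0.698 FPKM in Con and at 0.758, 0.346 and 0.790 FPKM in GLUP, with overlap and a log2 fold change of -0.35 (SE 0.24). Both had an adjusted p of 0.622 in limma.

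SRF binds the CArG box. Of the 50 actin cytoskeleton genes that matched a RefSeq promoter window (250 bases before to 50 after the start, GRCh38.p14), 6 held a CArG box, found by name on both strands. A gene can have several windows. Counted by gene, these are 12% of the list beside 1.6% of 27305 genes, and counted by window, 6 of the 86 windows of the list (6.98%) beside 1.29% of 35116 windows. The windows of ACTB, ARPC1B, MYL9, PFN2 and TAGLN were not in the table. The stretches before the start are shown because they hold a match to the CArG box, with the box in capitals, 5′ to 3′ on the strand of the gene. Binding of SRF to them was not measured here. Their positions are chr6:43171204-43171268 (plus strand) for SRF, chr14:68977693-68977772 (minus) for ACTN1, chr17:81512849-81512928 (minus) for ACTG1, chr19:1026484-1026563 (plus) for CNN2, chr19:16067330-16067409 (plus) for TPM4 and chrX:154374684-154374763 (minus) for FLNA.
SRF: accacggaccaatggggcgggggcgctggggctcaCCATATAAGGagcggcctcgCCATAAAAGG
ACTN1: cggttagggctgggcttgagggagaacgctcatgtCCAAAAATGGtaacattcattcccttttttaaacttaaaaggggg
ACTG1: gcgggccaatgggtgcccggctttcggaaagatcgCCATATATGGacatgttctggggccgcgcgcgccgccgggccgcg
CNN2: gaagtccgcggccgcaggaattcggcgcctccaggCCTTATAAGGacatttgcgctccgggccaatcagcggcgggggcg
TPM4: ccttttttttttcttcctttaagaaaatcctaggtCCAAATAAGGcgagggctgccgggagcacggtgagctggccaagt
FLNA: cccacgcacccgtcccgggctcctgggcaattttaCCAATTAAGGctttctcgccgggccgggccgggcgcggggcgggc

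The 6 genes with a box did not share a direction. ACTG1, ACTN1, CNN2 and FLNA had the higher mean in GLUP, at log2 fold changes of 1.09, 0.65, 0.47 and 0.34, and TPM4 and SRF the lower, at -0.60 and -0.21. FLNA, a large crosslinker, was at 0.437, 0.171 and 1.51 FPKM in Con and at 1.39, 1.48 and 0.436 FPKM in GLUP, with overlap. The core of the TEAD site, GGAATG or its reverse CATTCC, was in at least 1 window of 9 of the 50 genes (18%), beside 16.7% of all genes, and in 10 of their 86 windows (11.6%), beside 14% of all windows. They were CNN3, FLNC, CALD1, VCL, ACTN1, PFN1, MYH10, MYL12A and MYH9. A match is a description of the letters, and no binding was measured here.

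Of 78 other genes of the pathway, 39 reached 1 FPKM, and none of these had an adjusted p under 0.05 in limma. At an unadjusted p under 0.05, 3 (7.69%) were higher in GLUP and 7 (17.9%) were lower, beside 4.46% and 17.2% of all tested genes. CDC42, the GTPase that drives filopodia, was at 10.5, 12.7 and 5.62 FPKM in Con and at 3.46, 3.81 and 2.40 FPKM in GLUP. The groups did not overlap and differed by -1.28 log2 units (SE 0.34, adjusted p 0.194 in limma), or by -0.85 after GC correction. PPP1CB, the catalytic subunit of myosin phosphatase, was at 50.2, 247 and 25.7 FPKM in Con and at 22.7, 19.8 and 8.35 FPKM in GLUP, with Con replicate 2 several times above the rest, as it was for CAPZA1. The log2 fold change of PPP1CB was -2.07 (SE 0.72, adjusted p 0.198 in limma), and -1.15 without Con replicate 2. ARPC5L, the alternative form of ARPC5, was at 4.03, 3.62 and 2.42 FPKM in Con and at 1.30, 1.41 and 1.96 FPKM in GLUP.

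TWF2, a twinfilin that binds monomers and capping protein, was at 0.936, 0.482 and 1.502 FPKM in Con and at 2.91, 2.20 and 2.20 FPKM in GLUP, a log2 fold change of 0.83 (SE 0.26, adjusted p 0.194 in limma). It was at 0.46 after GC correction. DBN1, a filament-binding drebrin, was at 1.17, 0.464 and 1.87 FPKM in Con and at 3.08, 2.22 and 1.75 FPKM in GLUP, with overlap and a log2 fold change of 0.66, or 0.40 when Con replicate 2 was left out. ACTA2, the smooth muscle actin, was at 91.3, 29.0 and 85.6 FPKM in Con and at 141, 118 and 135 FPKM in GLUP, with no overlap and a log2 fold change of 1.08 (SE 0.43, adjusted p 0.203 in limma), which was 0.56 when Con replicate 2 was left out. Part of its locus overlaps FAS and STAMBPL1 on the other strand. ACTG2, the enteric actin, was listed at 0.0490, 0 and 0 FPKM in Con and at 0.208, 0.118 and 0.0941 FPKM in GLUP. CNN1 was listed at 0 in every library but Con replicate 1, where it was at 0.0297 FPKM.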

How the data were processed

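RNA sequencing of 3 Con and 3 GLUP libraries was deposited by the authors as FPKM per gene. The submitters' processing notes name HISAT2, Cufflinks and RSEM, without versions, and the build GRCh38.p10, whereas the identifiers carry the suffix of a GENCODE annotation lifted to GRCh37. Strand-specific counting is not given in the sources used here, so overlapping genes are uncertain. Symbols came from a table of identifiers, and gene coordinates, canonical transcript length and GC content (99.8% of tested genes) from GENCODE 44 lifted to GRCh37. Promoter windows came from RefSeq on GRCh38.p14.

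From the FPKM values, log2(FPKM + 1) was computed for the 7406 genes whose mean reached 1 FPKM and fitted with limma 3.58.1 (eBayes with trend, two-sided) in R 4.3.3, with Benjamini-Hochberg adjustment over all 7406 genes. For the 10 genes of the list under that minimum, an unfiltered fit was used. Figures used matplotlib 3.10.9. The list and the pairs were chosen with earlier results of these data known. Every value is given for the actins, TAGLN, SRF, MRTFA and the 2 tested genes with the smallest p in each class. For the other pathway genes it is given for the 3 smallest p in each direction and for ACTA2, ACTG2 and CNN1. Values of TMSB10, MYL6, MYH9, PFN1, PFN2 and FLNA were added after they were seen. Other settings were pseudocounts, minimums, scalings, a GC and length trend (loess, span 0.5), eBayes options, a replicate block and leaving out each library.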

Additional observations from a re-analysis of the deposited data

How the results depend on the processing

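Over all tested genes, the number with an adjusted p under 0.05 was 0, but 1 with a minimum mean of 5 FPKM, 1 in eBayes without trend, 2 with the GC and length trend taken out, and 0 to 1367 when 1 library was left out, with the highest number without Con replicate 3. For the actin cytoskeleton genes that number was 0 to 7 when 1 library was left out. At an unadjusted p under 0.05, 4 were lower in GLUP with the trimmed mean of log ratios, median centring, upper quartile scaling or GC correction, compared with 7, while the share of all tested genes that was lower went from 17.2% to between 7.71% and 9.16%. Leaving out 1 library gave 3 to 11 lower, the most without Con replicate 2, and 1 to 8 higher, the fewest without GLUP replicate 1 and the most without Con replicate 3. Without Con replicate 2, the lower genes were 24.4% of the list, beside 14.8% of all tested genes. Without Con replicate 3, they were 20%, beside 31.5%, and the higher genes were 17.8%, beside 8.86%. Without GLUP replicate 1, the higher genes were 2.22%, beside 2.16%. Over all tested genes the lower share ran from 8.3% to 31.5% and the higher share from 2.16% to 8.86% in these fits. The counts are read only beside the shares of the same fit. Genes wholly lower in GLUP numbered 7 under those settings, compared with 12, beside 13.2% to 14.6% of all tested genes, compared with 22.7%. Those wholly higher numbered 5 to 10 when 1 library was left out, beside 9.21% to 13.7% of all tested genes. The median log2 fold change was -0.26 with a minimum of 5 FPKM, 0.072 with the trimmed mean, 0.15 with median centring, 0.068 with the upper quartile and 0.022 with quantile normalization. With a minimum of 5 FPKM, 9 of the other pathway genes were tested. Of these, 1 was higher and 3 were lower, beside 5.89% and 18.8% of all tested genes. After GC correction, 5 of 39 were higher, beside 8.83%. When 1 library was left out, 1 to 4 were higher and 3 to 12 lower. The all-gene shares in those fits ran from 2.16% to 8.86% higher and from 8.3% to 31.5% lower.

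Several values of single genes and pairs changed sign, and the cause was not tested. GC correction gave 0.036 for MYL12B, 0.071 for MYL12A and a difference of -0.20 for MYH9 to MYH10. When 1 library was left out, TAGLN ran from -0.12 to 0.23. The differences in log2 ratio ran from -0.22 to 0.59 for ACTB to ACTG1, from -0.11 to 0.38 for MYH9 to MYH10 and from -1.18 to 0.40 for PFN1 to PFN2. They ran from -1.28 to 0.21 for CAPZA1 to CAPZA2, from -0.28 to 0.36 for ACTN1 to ACTN4, from -0.71 to 0.072 for EZR to MSN and from -0.37 to 0.39 for MSN to RDX.

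Deviations of same-numbered libraries correlated at 0.132, -0.0102 and -0.173. With 3 libraries a group, these values cannot settle whether the replicate numbers pair the libraries. With the replicate block, 1 gene of all tested had an adjusted p under 0.05. At an unadjusted p under 0.05, 5 actin cytoskeleton genes (11.1%) were higher and 6 (13.3%) lower, beside 4.79% and 15.6% of all tested genes. With the block and GC correction, 1 gene of all tested passed the adjusted threshold. In that fit 5 actin cytoskeleton genes (11.1%) were higher and 5 (11.1%) lower, beside 8.49% and 8.51% of all tested genes. Wholly lower were 7 of the list (15.6%), beside 13.8%. Of the 39 other pathway genes tested, 5 were higher and 4 lower, beside the same 8.49% and 8.51%. MYL12B and MYL12A were again at 0.036 and 0.071. The number of reads is unknown, so no counting error could be given, and 3 libraries a group limit the precision.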
